A study of Mus musculus with 6 samples.

Results

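The genes described here are named for proteins of the mitochondrial ribosome and were taken by name alone. They are every gene whose probe sets carry a single annotated symbol beginning with Mrpl or Mrps and a number. Whether each one is a part of the ribosome was not checked. There were 76 such genes among 18193 measured, 47 of the large subunit (Mrpl) and 29 of the small subunit (Mrps), read by 156 probe sets. Where a gene had several probe sets, the one with the highest mean stood for it. RNA came from common myeloid progenitors (CMP) of bone marrow of C57BL6 mice, sorted by fluorescence of H2-DCFDA, a dye that reports reactive oxygen species (ROS). The groups were 3 samples of high-ROS CMP and 3 samples of low-ROS CMP, each group holding 15% to 20% of all CMP. All 6 samples share the strain and were stained and sorted in the same way. The labels state no age and do not tell whether the replicates were separate animals or separate sorts. The p-values therefore describe the spread among these 6 samples alone, part of which may be technical. Each sample was read on 1 one-colour array.

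The mitochondrial ribosome translates the few proteins encoded in mitochondrial DNA, all of them core subunits of the respiratory chain and the ATP synthase. Its ribosomal RNAs come from mitochondrial DNA, but all of its proteins are encoded in the nucleus, made in the cytosol and imported. The small subunit binds the messenger RNA and reads its codons, and the large subunit forms the peptide bond and passes the new protein out at the inner membrane, next to the respiratory complexes that are a main source of ROS in the cell.

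The promoters of nuclear genes for mitochondrial proteins are known for binding sites of ETS factors such as GABP and of NRF1. The 6 sequences shown here are the 250 bases before the annotated start of members with both, 1 or neither of the motifs, from the RefSeq table of GRCm38.p6, with sites in capitals. They are examples and not the members with the smallest p. Mrpl28, Mrpl11 and Mrps24, next in p after Mrps6, are not shown and have no motif in these 250 bases, although Mrpl28 has both after the start. The motifs searched on both strands were CCGGAA for ETS factors and GCGCNN followed by GCGC for NRF1, counted separately, so that a base may belong to both. Mrpl39 has both motifs, at chr16:84735245-84735494 (minus strand), Mrpl12 has an NRF1 motif, at chr11:120484387-120484636 (plus strand), and Mrpl51 and Mrps18c have ETS motifs, at chr6:125191950-125192199 (plus strand) and chr5:100798509-100798758 (plus strand). Mrps6, the member with the largest log2 fold change, has neither motif, at chr16:92058086-92058335 (plus strand), and neither has Mrps11, at chr7:78782881-78783130 (plus strand), which starts back to back with another member.
Mrpl39: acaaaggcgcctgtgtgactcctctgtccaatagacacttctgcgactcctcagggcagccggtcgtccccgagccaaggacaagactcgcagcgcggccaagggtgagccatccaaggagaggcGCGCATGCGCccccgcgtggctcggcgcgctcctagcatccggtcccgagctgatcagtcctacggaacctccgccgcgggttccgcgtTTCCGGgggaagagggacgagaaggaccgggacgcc
Mrpl12: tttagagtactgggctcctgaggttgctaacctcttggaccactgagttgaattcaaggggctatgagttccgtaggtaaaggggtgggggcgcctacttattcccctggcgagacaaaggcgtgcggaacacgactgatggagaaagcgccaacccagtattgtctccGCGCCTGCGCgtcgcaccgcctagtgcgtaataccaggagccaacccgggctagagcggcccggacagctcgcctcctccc
Mrpl51: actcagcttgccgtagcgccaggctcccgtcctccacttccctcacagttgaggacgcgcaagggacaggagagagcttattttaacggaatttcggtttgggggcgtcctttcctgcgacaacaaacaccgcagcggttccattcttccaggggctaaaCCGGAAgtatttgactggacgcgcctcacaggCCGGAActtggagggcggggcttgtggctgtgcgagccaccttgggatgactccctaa
Mrps18c: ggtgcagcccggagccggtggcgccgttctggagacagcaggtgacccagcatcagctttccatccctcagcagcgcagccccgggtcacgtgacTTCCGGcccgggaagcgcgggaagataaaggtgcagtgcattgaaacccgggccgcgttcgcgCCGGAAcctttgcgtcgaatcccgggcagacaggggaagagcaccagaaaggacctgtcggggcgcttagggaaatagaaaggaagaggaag
Mrps6: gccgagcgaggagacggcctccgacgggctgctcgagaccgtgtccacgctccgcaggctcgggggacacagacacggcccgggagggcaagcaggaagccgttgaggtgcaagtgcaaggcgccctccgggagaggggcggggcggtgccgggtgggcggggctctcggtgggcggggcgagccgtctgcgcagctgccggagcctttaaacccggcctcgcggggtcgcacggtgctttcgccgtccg
Mrps11: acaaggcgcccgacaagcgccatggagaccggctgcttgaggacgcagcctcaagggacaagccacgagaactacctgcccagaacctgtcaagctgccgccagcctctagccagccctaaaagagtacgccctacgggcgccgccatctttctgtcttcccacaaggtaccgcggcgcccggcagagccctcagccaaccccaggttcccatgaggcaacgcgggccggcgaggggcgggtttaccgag

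Of the 76 members, 67 had a promoter window in the table, each of 250 bases before and 50 after the start. The ETS motif was in the windows of 38 of them, 56.7%, against 24.1% of the 14452 measured genes with a window and 14.9% of all 32851 windows. The NRF1 motif was in those of 13, 19.4%, against 11.4% of measured genes and 6.23% of all windows. The ETS motif was found in similar shares of the large (23 of 41) and the small (15 of 26) subunit. Of the members whose arrays separated the groups with high-ROS CMP higher, described further on, 8 of 15 held the ETS motif, and of the other members 30 of 52. A match is a description of the letters in a window and not a site shown to be bound.

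The members lie on 17 chromosomes, 11 of them on chromosome 11 and 8 on chromosome 17. On the opposite strand, a protein-coding gene started within 1000 bases upstream of 23 of the 67 members with a window, 34.3%, against 10.8% of all measured genes with one. Mrpl46 and Mrps11, one gene of each subunit, start back to back in this way on chromosome 7. Mrps12 starts beside Sars2, the mitochondrial seryl-tRNA synthetase, Mrpl47 beside Ndufb5 of respiratory complex I, and Mrpl43 beside Twnk, the mitochondrial DNA helicase. Within the first pair the log2 fold change, high-ROS over low-ROS, was 0.10 for Mrpl46 (SE 0.166) and -0.094 for Mrps11 (SE 0.176), and Mrps12 had 0.20 (SE 0.146) beside -0.23 (SE 0.217) for Sars2. None of these passed the test, and differences between partners were not tested. The annotated span of 19 members overlaps that of another protein-coding gene, counted without regard to strand. Whether a signal near such an overlap comes from the other gene was not tested.

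The arrays were on a similar scale, with median signals of 40.9 to 41.5 in high-ROS CMP and 40.4 to 42.5 in low-ROS CMP. Gapdh signal at the 3' end over that at the 5' end, a measure of RNA integrity and labelling, was 3.57, 2.997 and 4.53 in high-ROS replicates 1 to 3 and 3.19, 2.84 and 2.54 in low-ROS replicates 1 to 3. The same ratio of Actb was 1.03, 1.05 and 1.06 in high-ROS replicates 1 to 3 and 0.98, 1.02 and 1.05 in low-ROS replicates 1 to 3. Only the Gapdh ratio was entered in a fit. Of the genes that define the CMP gate, Kit, Cd34, Fcgr3 and Fcgr2b gave clear signals in both groups, Il7r, which CMP gates usually exclude, gave 669 to 764 in high-ROS and 666 to 835 in low-ROS CMP, and Ly6a is not analysed here. Summed signals of 7 late neutrophil markers were 49829 to 52193 in high-ROS and 50121 to 54618 in low-ROS CMP, with lower high-ROS means for all 7, 3 of them (Ltf, Ngp and Mmp8) with separate groups. Those of 6 megakaryocyte markers were 741 to 992 in high-ROS and 1323 to 1333 in low-ROS CMP. Of the 6, 3 were lower in high-ROS CMP. Pf4, the brightest, and Itga2b had separate groups, at log2 fold changes of -0.73 (SE 0.141) and -0.74 (SE 0.223). Higher were Ppbp, Gp1bb and Tubb1, all dim, with means of 28.5, 42.4 and 17.8 over the 6 arrays. Sums of 4 erythroblast markers were 6446 to 7843 in high-ROS and 8378 to 8512 in low-ROS CMP, with 3 of the 4 lower. Slc4a1, the brightest, had separate groups (log2 fold change -0.30, SE 0.0877), and Hba-a1, the 1 higher, had a mean of 3.6. B cell, T and NK cell and macrophage marker sums overlapped between the groups, although all 6 T and NK cell markers had a higher mean log2 signal in high-ROS CMP. No marker was listed at 0, but Hba-a1 was at 1 on low-ROS replicate 1 and high-ROS replicate 2. A listed value therefore does not show that a marker was detected. The part of these markers and of the Gapdh ratio in the results on the ribosomal genes was not tested, and in sorted populations fewer cells of a type and less RNA per cell cannot be told apart.

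Mitochondrial ribosomal protein genes lay slightly higher in high-ROS CMP as a list, and no single one passed the test. Of the 76 members, 56 had a higher mean log2 signal in high-ROS CMP and 20 a lower one, against 54% of all 18193 genes, and 53.3% of genes with a mean signal over 100, that were higher. The median log2 fold change, high-ROS over low-ROS on the scale of log2(signal + 16), was 0.15 over the members and 0.02 over all genes. The quartiles of the members were -0.023 and 0.31, and the extremes were -0.42 for Mrpl43 and 0.77 for Mrps6. At an adjusted p under 0.05 (limma, Benjamini-Hochberg over all genes), 0 of the 76 passed, where 10 of 18193 genes, 0.055%, did so (0.0165% higher and 0.0385% lower). The smallest adjusted p was 0.191, for Mrps6. At an unadjusted p under 0.05 there were 11 members higher and 0 lower, together 14.5%, against 7.81% of all genes (4.44% higher and 3.37% lower) and 10.5% of the 8157 genes with a mean signal over 100, a level that 72 of the 76 members exceeded.

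In 17 members, 22.4%, all 3 values of one group lay above all 3 of the other, against 13.4% of all genes and 16.9% of those with a mean signal over 100. High-ROS CMP was the higher group in 16 of the 17, and for all genes 8.04% separated in this direction and 5.32% in the other. The exception was Mrpl32, with signals of 707, 695 and 618 in high-ROS CMP and 798, 725 and 711 in low-ROS CMP. Its highest high-ROS value lay just under its lowest low-ROS value (log2 fold change -0.14, SE 0.121). The smallest p that an exact permutation test of 3 arrays against 3 can reach is 0.1, and single genes were not tested that way.

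**Figure D1:**
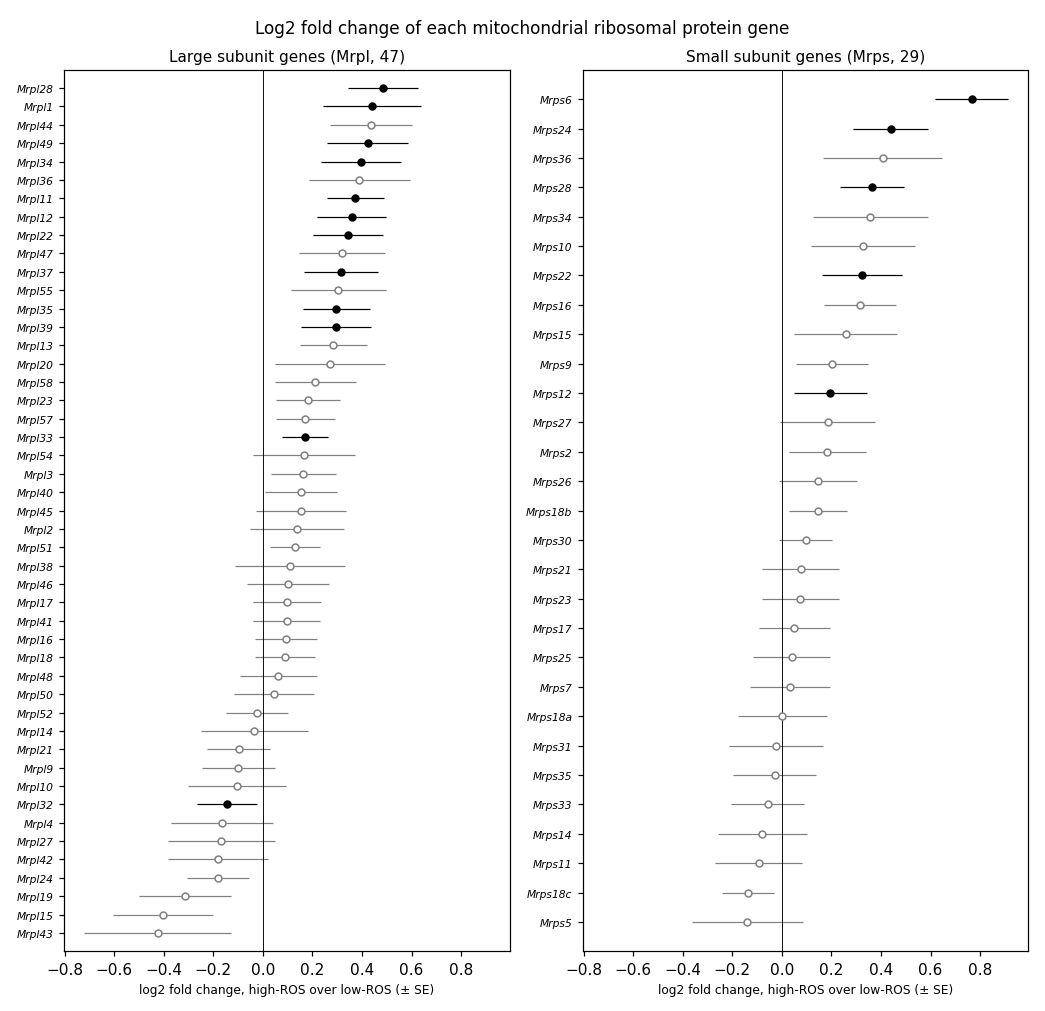
Log2 fold change (x axis, high-ROS over low-ROS CMP, lines are SE) of each of the 47 large subunit genes (left) and 29 small subunit genes (right), ordered by value. Filled points are the 17 genes whose groups did not overlap: 16 lie right of 0 and only Mrpl32 lies left of it.

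The shift was spread unevenly over the arrays. Relative to each gene's mean over the 6 arrays, the median member stood at 0.04, 0.16 and 0.02 (log2) in high-ROS replicates 1 to 3 and at -0.11, 0.00 and -0.06 in low-ROS replicates 1 to 3. All 3 high-ROS values therefore lay above all 3 low-ROS values, but the third high-ROS and the second low-ROS array were close together. High-ROS replicate 2 held the highest value of 31 members, and low-ROS replicate 1 the lowest value of 30. The median over all genes lay between -0.05 and 0.01 on each array, with -0.05 on low-ROS replicate 3. Without low-ROS replicate 1 the median log2 fold change was 0.10 for the members, with 54 of 76 higher, and 0.069 for the large subunit. In that fit the median of all genes was 0.031, with 55.7% higher. The members' median less that of all genes was 0.065 there, against 0.128 with all 6 arrays. With the Gapdh ratio in the fit the members' median was 0.19, with 66 of 76 higher. The median of all genes was then 0.009, with 51.5% higher.

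**Figure D2:**
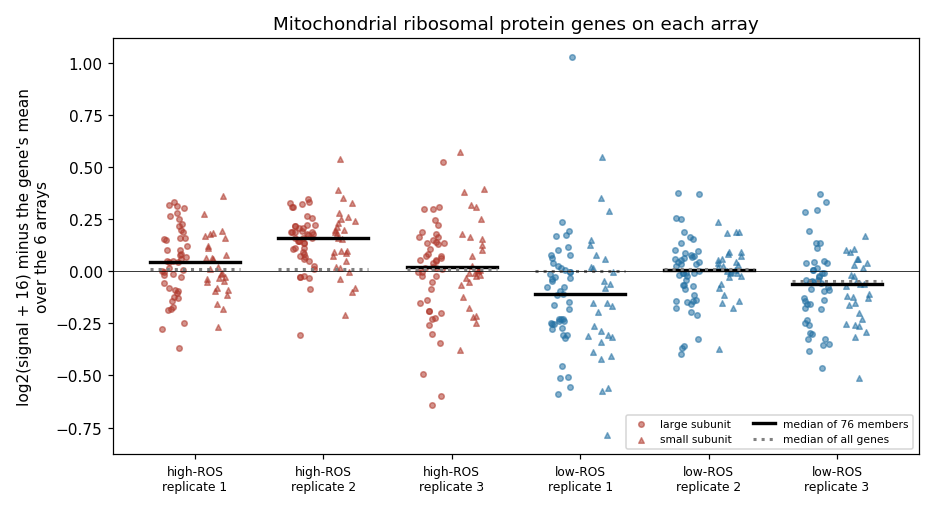
Each point is 1 member on 1 array, as log2(signal + 16) minus its mean over the 6 arrays (y axis), for the high-ROS arrays (red) and the low-ROS arrays (blue). The black median of the 76 members is highest on high-ROS replicate 2, at 0.16, and lowest on low-ROS replicate 1, at -0.11, while the dotted median of all genes stays between -0.05 and 0.01.

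Both subunits had similar values. In the large subunit 34 of 47 members were higher, and in the small subunit 22 of 29, each with a median log2 fold change of 0.15. Groups did not overlap for 12 large subunit members, 25.5%, 11 of them higher in high-ROS CMP. In the small subunit they did not overlap for 5 members, 17.2%, all higher. The share was 13.4% of all genes and 16.9% of those with a mean signal over 100. Structures of the mammalian ribosome place Mrps18a and Mrps30 in the large subunit in spite of their names, and moved there they left medians of 0.14 for the large and 0.15 for the small subunit. All other members were counted by name. The difference between the subunits was not tested.

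The members were also classed as 46 with a counterpart in the bacterial ribosome and 30 without one. The median log2 fold change was 0.15 in the first class, with 32 of 46 higher, and 0.14 in the second, with 24 of 30 higher. Of the 17 members with separate groups, 13 had a bacterial counterpart, 28.3% of that class, and 4 had none, 13.3% of theirs. Over all genes the share was 13.4%, and 16.9% over those with a mean signal over 100. By place in the large subunit, the 8 proteins around the exit tunnel had a median of 0.24, with 7 higher, and the 4 measured of the flexible stalk that recruits translation factors 0.26, with 3 higher. The 6 of the central protuberance had a median of 0.10, with 5 higher, and the 5 near the peptidyl transferase centre 0.09, with 3 higher. These classes are small and differences between them were not tested.

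Mrps6, a small subunit protein with a bacterial counterpart, had the largest log2 fold change and the smallest p. Its signals were 570.3, 514 and 663 in high-ROS CMP and 365, 337 and 304 in low-ROS CMP, so that the lowest high-ROS value stood well above the highest low-ROS value. The means were 582 ± 75.4 in high-ROS and 335 ± 30.3 in low-ROS CMP (SD, n = 3 each), 1.7-fold higher (log2 fold change 0.77, SE 0.148, unadjusted p = 0.000305, adjusted p = 0.191 by limma). Its other probe set was dim, with means of 91.8 and 88.4 in high-ROS and low-ROS CMP and a log2 fold change of 0.07 (SE 0.231). With the mean of its probe sets the log2 fold change was 0.42. In the annotation Slc5a3, a myo-inositol transporter, overlaps Mrps6 on the chromosome, and the probe set that stood for Slc5a3 had signals of 113, 139 and 105 in high-ROS CMP and 169.8, 135 and 101 in low-ROS CMP (log2 fold change -0.15, SE 0.222). The other 2 probe sets of Slc5a3 were not used, and its part in the Mrps6 signal was not tested.

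Mrpl28, a large subunit protein with a bacterial counterpart, had 485, 460.0 and 501 in high-ROS CMP and 324, 384 and 314 in low-ROS CMP (log2 fold change 0.49, SE 0.142, adjusted p = 0.505). The groups lay apart, but the second bright probe set of the gene gave means of 263 and 243 in high-ROS and low-ROS CMP and a log2 fold change of 0.10 (SE 0.163). Mrpl49, classed as without such a counterpart, had 406, 458 and 404 in high-ROS CMP and 250.1, 345 and 348 in low-ROS CMP (log2 fold change 0.42, SE 0.165, adjusted p = 0.587 by limma). Its groups did not overlap either, low-ROS replicate 1 was the lowest array, and its other probe set gave 0.02 (SE 0.231). In the annotation Mrpl49 overlaps Syvn1, whose part in the signal was not tested.

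The stalk proteins are the part of the large subunit where elongation factors dock. Mrpl11, at the base of the stalk, had 1033, 1005 and 972 in high-ROS CMP and 784, 699 and 835 in low-ROS CMP (log2 fold change 0.37, SE 0.115, adjusted p = 0.548). Its groups lay apart, and its other 3 probe sets gave 0.33, 0.21 and 0.45, the last from a dim one. Mrpl12, the mobile stalk protein, which in human cells also binds the mitochondrial RNA polymerase, had 887, 796 and 743 in high-ROS CMP and 709, 537 and 644 in low-ROS CMP (log2 fold change 0.36, SE 0.138, adjusted p = 0.587). The lowest high-ROS array lay just above the highest low-ROS array. Mrpl10, which anchors Mrpl12 to the ribosome, had 147, 199 and 146 in high-ROS CMP and 171, 152 and 209 in low-ROS CMP, groups that overlapped (log2 fold change -0.10, SE 0.199).

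Among the small subunit proteins with a bacterial counterpart, Mrps28 had 870.1, 960.0 and 899 in high-ROS CMP and 607, 784 and 731 in low-ROS CMP (log2 fold change 0.36, SE 0.129, adjusted p = 0.568). Mrps24 had 552, 507 and 638 in high-ROS CMP and 377, 480.3 and 384 in low-ROS CMP (log2 fold change 0.44, SE 0.151, adjusted p = 0.568). Both genes had separate groups, although the other probe set of Mrps24 gave 0.06 (SE 0.142). Mrps12, a protein of the decoding centre, had 394, 424 and 397 in high-ROS CMP and 307, 389 and 364 in low-ROS CMP, also separate, by a small gap (log2 fold change 0.20, SE 0.146).

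**Figure D3:**
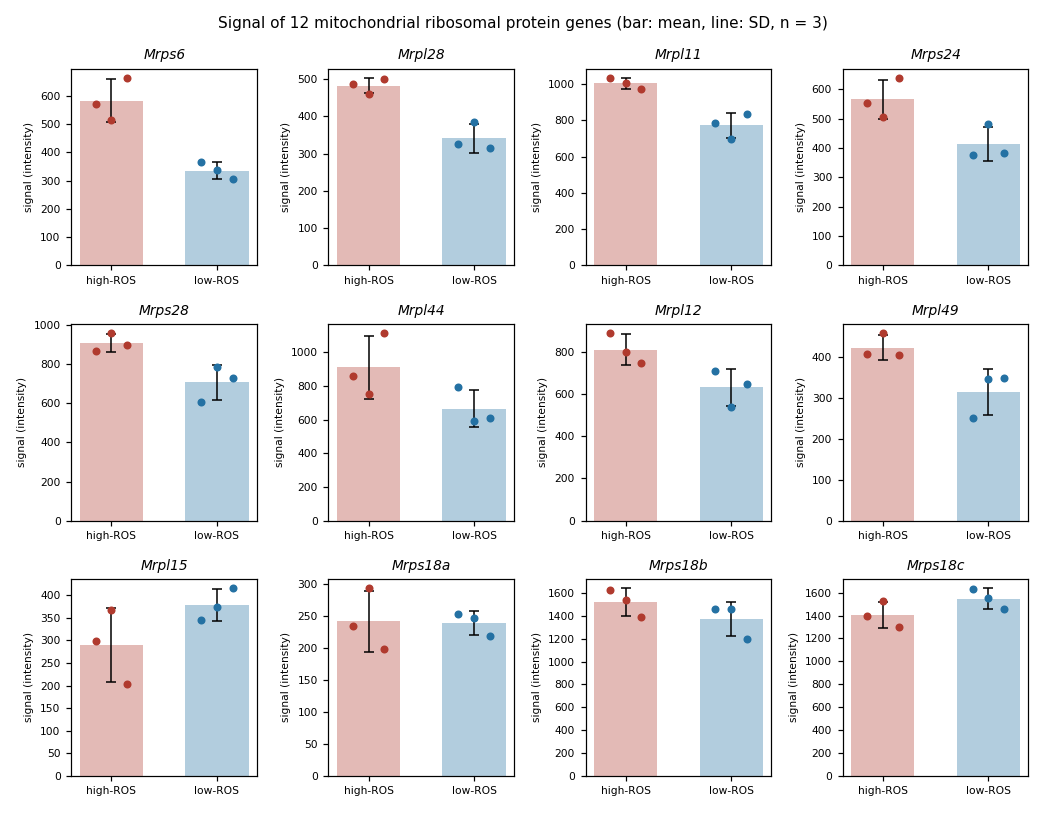
Deposited signal (y axis, linear intensity, from 0) of 12 members in high-ROS CMP (red) and low-ROS CMP (blue), with a point per array, bars for means and lines for SD (n = 3 each). Of the first 8 genes, only Mrpl44 has a high-ROS array (754) below a low-ROS array (791), and Mrpl15 and the Mrps18 genes overlap.

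Mrpl44, a protein with an RNase III-like fold near the exit tunnel, showed how far probe sets of 1 gene can differ. The chosen one had 861, 754 and 1113 in high-ROS CMP and 791, 594 and 611 in low-ROS CMP, overlapping by 1 array of each group (log2 fold change 0.44, SE 0.166). The second brightest gave 0.38 (SE 0.166), but the third, with means of 169 in high-ROS and 205 in low-ROS CMP, gave -0.25 (SE 0.193). Its opposite values are a limit on any statement about this gene. In the annotation Mrpl44 overlaps Wdfy1, whose part in these signals was not tested. Of 42 members with several probe sets, 24 had at least 2 with a mean signal over 100, and in 9 of these 24 such probe sets had log2 fold changes of opposite sign. Mrpl3 gave 0.16 (SE 0.13) and -0.24 (SE 0.19) on 2 such probe sets, and Mrps5, a protein at the messenger RNA entry side, -0.14 (SE 0.225) and 0.30 (SE 0.206).

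Members with a lower mean in high-ROS CMP numbered 20. Mrpl15, the only one with an unadjusted p under 0.1, had 298, 366 and 203 in high-ROS CMP and 345, 374 and 415 in low-ROS CMP (log2 fold change -0.40, SE 0.202, adjusted p = 0.657). High-ROS replicate 3 was the lowest array, replicate 2 lay within the low-ROS range, and once the Gapdh ratio entered the fit the log2 fold change was 0.033. All 5 of its probe sets with a mean signal over 100 had negative values, from -0.40 to -0.07. Mrpl43, which overlaps Twnk, had 297, 311 and 399 in high-ROS CMP and 809.8, 386 and 294 in low-ROS CMP (log2 fold change -0.42, SE 0.296). Its value rests on low-ROS replicate 1, the 1 array that stood apart from the other 5.

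Inherited defects of several of these proteins cause combined respiratory chain deficiency in humans, among them MRPL3, MRPL44, MRPS7, MRPS16, MRPS22 and MRPS34. Mrps16 had 482, 574 and 582 in high-ROS CMP and 389, 487 and 433 in low-ROS CMP (log2 fold change 0.32, SE 0.145, adjusted p = 0.638), with only the lowest high-ROS and the highest low-ROS value crossing. Mrps22 had 390.1, 430.3 and 393 in high-ROS CMP and 265, 382 and 322 in low-ROS CMP, separate groups (log2 fold change 0.32, SE 0.163, adjusted p = 0.657). Mrps7 had 457, 322 and 370.0 in high-ROS CMP and 379, 390.1 and 344 in low-ROS CMP, where high-ROS values lay on both sides of the low-ROS ones (log2 fold change 0.03, SE 0.161). Mrps34, with means of 38.3 in high-ROS and 26.9 in low-ROS CMP, was among the dimmest members (log2 fold change 0.36, SE 0.231), and its groups overlapped.

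The 3 paralogs Mrps18a, Mrps18b and Mrps18c, alternative relatives of one bacterial protein, had log2 fold changes of 0.00 (SE 0.18), 0.15 (SE 0.116) and -0.14 (SE 0.105). Mrps18b had 1630.0, 1539 and 1387 in high-ROS CMP and 1461, 1458 and 1199.7 in low-ROS CMP. Mrps18c had 1394, 1525 and 1300.3 in high-ROS CMP and 1636, 1552 and 1454 in low-ROS CMP. The groups of all 3 overlapped, none passed the test, and differences between them were not tested. Mrps30 had means of 1179.9 ± 84.1 in high-ROS and 1102 ± 55.6 in low-ROS CMP (SD, n = 3 each, log2 fold change 0.10, SE 0.107).

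Other members were named for their signal, bright or dim. Mrpl33 had 2125, 2111 and 1972 in high-ROS CMP and 1846, 1924 and 1746 in low-ROS CMP, separate groups with a log2 fold change of 0.17 (SE 0.0916). Mrpl39, a protein related to threonyl-tRNA synthetase, had 1624, 1640.0 and 1939 in high-ROS CMP and 1526, 1620.1 and 1127 in low-ROS CMP (log2 fold change 0.29, SE 0.141). Its lowest high-ROS value was just above its highest low-ROS value. Mrpl51 had means of 1639 ± 60.1 in high-ROS and 1501 ± 119 in low-ROS CMP (SD, n = 3 each, log2 fold change 0.13, SE 0.101). Mrpl14 and Mrpl38 had means under 100 in both groups and log2 fold changes of -0.03 (SE 0.217) and 0.11 (SE 0.221).

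The remaining machinery of mitochondrial translation was taken from lists of known genes. Of 4 measured ribosomal proteins with other names, Dap3, Gadd45gip1, Chchd1 and Ptcd3, all 4 had higher means in high-ROS CMP (median log2 fold change 0.21). Ptcd3, which binds messenger RNA at the small subunit, had 494, 478 and 444 in high-ROS CMP and 440.3, 394 and 386 in low-ROS CMP, and Chchd1 had 475, 424 and 392 in high-ROS CMP and 384, 359 and 369 in low-ROS CMP, both with groups apart. Of 10 translation factors, 7 had higher means (median 0.12), with Mrrf, the ribosome recycling factor, at 0.43 (SE 0.223) and Mtif2, the initiation factor that brings the first tRNA, at -0.34 (SE 0.197). No gene of these lists passed over all genes (limma, 0 of 4 and 0 of 10), and none had an unadjusted p under 0.05.

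Of 25 assembly and ribosomal RNA modification factors, 12 had higher means and the median log2 fold change was -0.02. Mettl17, an assembly factor of the small subunit, nevertheless had 156, 167 and 173 in high-ROS CMP and 75.6, 102 and 81.1 in low-ROS CMP, with groups far apart (log2 fold change 0.84, SE 0.193, adjusted p = 0.325). Tfb1m, which methylates the ribosomal RNA of the small subunit, had 172, 169 and 231 in high-ROS CMP and 88.3, 130.1 and 93.9 in low-ROS CMP (log2 fold change 0.79, SE 0.212, adjusted p = 0.436). Both lay higher on every high-ROS array than on any low-ROS array, and neither passed. Of 19 mitochondrial tRNA synthetases and amidotransferase subunits, 14 had higher means (median 0.22), led by Fars2, for phenylalanine, at 0.68 (SE 0.223), and Gatb at 0.46 (SE 0.174). Of 20 genes of mitochondrial RNA synthesis and processing, 15 had higher means (median 0.18), with Polrmt, the mitochondrial RNA polymerase, at 0.63 (SE 0.293) and Elac2, which trims the tRNA ends, at 0.46 (SE 0.193). No gene of these 3 lists passed over all genes (limma). An unadjusted p under 0.05 was found for 3 of 25 assembly factors (12%), 2 of 19 in the synthetase list (10.5%) and 1 of 20 in the RNA list (5%), shares near the 7.81% of all genes, and these few genes had higher means.

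**Figure D4:**
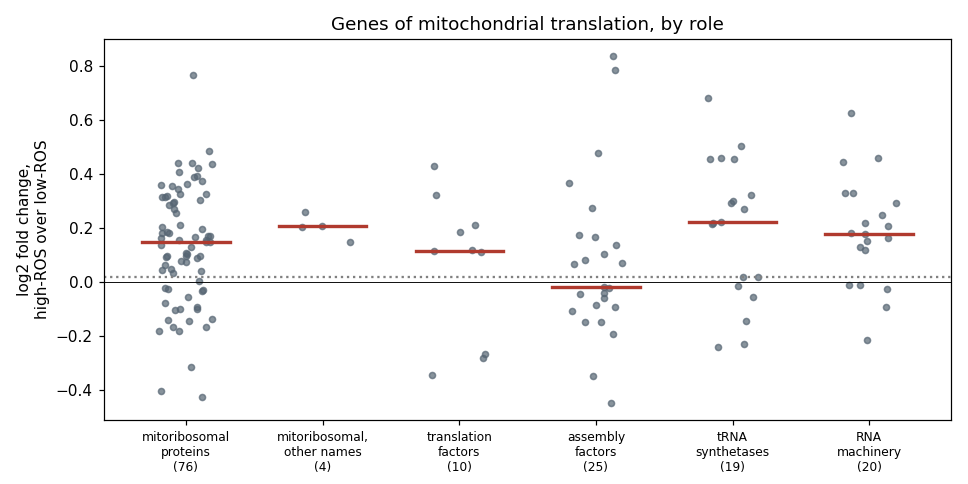
Each point is the log2 fold change (y axis, high-ROS over low-ROS CMP) of 1 gene, for the 76 members and the 5 lists of mitochondrial translation, with the list median as a red line and the median of all genes dotted. The medians are 0.15, 0.21, 0.12, -0.02, 0.22 and 0.18 from left to right, and the assembly factors spread from -0.45 to 0.84.

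For scale, genes named for the cytosolic ribosome and for respiratory complex I were set beside the members. Of 42 cytosolic ribosomal protein genes, 16 had a higher mean in high-ROS CMP. Their median log2 fold change was -0.02, and 3 genes, 7.14%, had separate groups. Of 35 Nduf genes, 25 had a higher mean, with a median of 0.08 and 7 genes, 20%, with separate groups. These genes were taken by symbol, Ndufa4 and Ndufa4l2 included, and were not checked for being subunits of complex I. The differences between these lists and the members were not tested. ND5, a complex I subunit that the mitochondrial ribosome itself translates, had 6040.2, 5989 and 5057 in high-ROS CMP and 6582, 6297 and 5832 in low-ROS CMP. These overlapped between the groups (log2 fold change -0.13, SE 0.0875, adjusted p = 0.738 by limma).

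**Figure D5:**
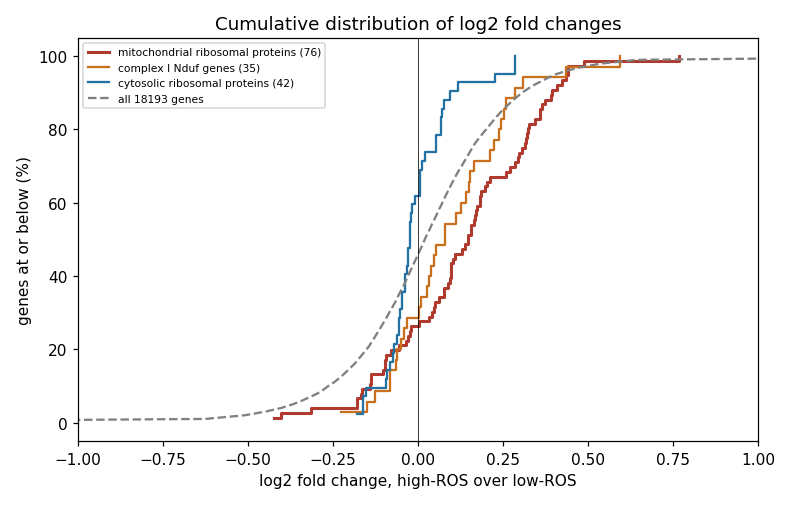
Cumulative share of genes (y axis, %) at or below a log2 fold change (x axis, high-ROS over low-ROS CMP, drawn from -1 to 1) for the 76 members, 35 Nduf genes, 42 cytosolic ribosomal proteins and all 18193 genes. The curve of the members crosses 50% at 0.15, that of the Nduf genes at 0.08, of the cytosolic ribosomal proteins at -0.02 and of all genes at 0.02.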

How the data were processed

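Per the labels' protocols, total RNA of sorted CMP was amplified and biotin-labelled, and 6 one-colour arrays were read. The authors deposited a linear intensity for each probe set on each array. Their summarisation and scaling of the intensity values are not given in the sources used here. Of 45101 probe sets, 34945 had 1 gene symbol in the platform annotation used. They gave 18193 genes, each by the probe set with the highest mean. Another 4 probe sets name a member beside another gene and were not used.

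A pseudocount of 16 was added before log2, which shrinks fold changes of dim genes. High-ROS and low-ROS CMP were compared by limma 3.58.1 in R 4.3.3 (lmFit, eBayes with a mean-variance trend, 2-sided, Benjamini-Hochberg over all genes, threshold 0.05), with 4 residual degrees of freedom and 11.1 after moderation. Signals of different probe sets are not compared as levels, and the number of arrays limits the precision. The members, lists, named genes and alternatives were chosen with earlier results of these data known. Named were the members with the 8 smallest unadjusted p under 0.1 in each direction, the 4 brightest and 3 dimmest, the 4 whose probe sets differed most, 12 fixed by name, and 2 genes of each other list. Others were named after their values were seen.

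The fit was tested in 20 simulations with 200 changed genes. It recovered 73.9% of log2 changes of 1 and 99.65% of log2 changes of 2. Smaller changes, such as those of all members, are not covered by these shares. Alternatives changed the variance model, filter, scaling, probe set rule, pseudocount, array weights, covariates and arrays used. Promoter windows and neighbours come from RefSeq tables of GRCm38.p6, read with Python 3.11.15, and matplotlib 3.10.9 made the plots.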

Additional observations from a re-analysis of the deposited data

How the results depend on the processing

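Under all 17 refits no member passed over all genes, as under 1 test per probe set and an adjusted p under 0.1, and the smallest adjusted p of a named member was 0.0553, for Mrps6 with array weights. The members' median log2 fold change stayed positive, from 0.10 without low-ROS replicate 1 to 0.19 with the Gapdh covariate, and 52 (mean of a gene's probe sets) to 66 members were higher. Less the median of all genes, the members' median was 0.065 and 0.183 in these fits, against 0.128 in the main fit. Leaving out each array gave medians of 0.0961 to 0.185 for all members, 0.0686 to 0.202 for the large and 0.104 to 0.181 for the small subunit. Members with an unadjusted p under 0.05 numbered 17 with quantile normalization and 18 with arrays scaled to one trimmed mean, against 11. Dropping a single array gave 9 to 13 such members, and 10 remained once high-ROS replicate 3 and low-ROS replicate 1 were both dropped. Lower members with such a p, 0 in the main fit, numbered 1 with the Gapdh covariate. Their number was 1 after low-ROS replicate 3 was dropped and 2 after high-ROS replicate 2 was dropped. Same-numbered arrays had correlations of their deviations of 0.119, 0.0966 and 0.00275, so the numbers were not taken to pair the samples. With the replicate block, 14 members had such a p, the median stayed at 0.147, and 4 genes of all were called. Replicates 1 and 2 of both groups correlated best with their own number, and replicate 3 of both groups did not.

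The count over all genes, 10, was 0 by limma with no mean-variance trend (where 12 members had an unadjusted p under 0.05), 17 among genes above the median signal, 30 with array weights, 4 with a pseudocount of 64 or without high-ROS replicate 3 and low-ROS replicate 1, the extremes of the first principal component, 3 with the Gapdh covariate, 17 at an adjusted p under 0.1, and 1 to 6 without 1 array. Signs turned in 14 of 423 values of named members, none past the threshold. Mrps5 was 0.16 with the mean of its probe sets and 0.061 without both of those arrays. With the Gapdh covariate Mrpl15 was 0.033, Mrpl14 0.14 and Mrps7 -0.072. Leaving out each array gave -0.29 to 0.10 for Mrps5, -0.16 to 0.052 for Mrpl14, -0.14 to 0.13 for Mrps18a, -0.098 to 0.14 for Mrps7 and -0.030 to 0.19 for Mrpl38. The causes were not tested. The members' median shift was 0.147. The median SE of a single member, 0.156, describes 1 gene and not the median over the list. For the median member of each array, relative to each gene's mean, the pooled SD between replicates was 0.067, from 3 arrays in each group.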
